A study of Mus musculus with 8 samples.

Results

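The 43 imprinted genes described here, 38 protein-coding and 5 non-coding, were taken as a named list with the regions of the series that lay in each gene or within 1000 bp of it. They held 346 of the 220894 regions in the list deposited for the whole series. The genes were grouped into the Igf2-Kcnq1, Snrpn-Ube3a, Peg3, Dlk1-Dio3, Gnas, Igf2r and Peg10 domains, with 13 genes described singly.

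The series profiled DNA methylation in 8 mouse cell lines by bisulfite sequencing of genomic DNA enriched with a capture kit for mouse methylation sequencing. Of these, 4 came from IDH mutant brain tumours, 2 from IDH wild-type tumours (RAS glioma), and 2 were astrocytes, immortalized and IDH wild-type, 1 of which (IWT-PDGFA) expressed exogenous wild-type IDH1. All came from N::TVA mice with floxed Cdkn2a on a mixed C57Bl/6, 129 and FVB/n background. Floxed Atrx was part of the genotype behind the mutant tumours and the astrocytes but not of that behind the wild-type tumours, so IDH status and the Atrx allele cannot be told apart among the tumour lines. The deposited values were 1 position and 1 score per region, with no value for a single line. The sources used here do not say what the score counts, and no methylation level, difference between lines or replicate error could be given for any gene below. The labelled cell types could not be checked against markers either, since a list of covered regions carries no expression.

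Imprinted genes are expressed mainly from the copy inherited from 1 parent. The choice is set by imprinting control regions, short CpG-rich sequences that are methylated in either the egg or the sperm and keep that mark on 1 allele in body tissues. A control region often coincides with the promoter of a non-coding RNA that silences its neighbours, or with an insulator to which CTCF binds only when it is unmethylated. Most somatic cells therefore carry a methylated and an unmethylated copy of such a region, and its loss or gain of methylation is a common alteration in tumours. Whether a control region was covered decides whether a bisulfite experiment can read it.

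Control regions were placed from the RefSeq annotation (GRCm38.p6, the assembly that mm10 names), as windows around annotated starts or at the distance upstream where the region is known to lie. The boundaries of the methylated segments themselves were not in the files. Of 19 such windows, 17 held a region, including 14 of the 15 fixed in the plan and 3 of the 4 placed at annotated starts after the tables were read. For comparison, 74.0% of protein-coding genes with an annotated start had a region within 1000 bp of it, and 49.4% of lncRNA genes. The windows are only partly like this. Those of the IG-DMR and Rasgrf1, 10000 to 16000 and 25000 to 40000 bp upstream of a start, were wider. Impact and Peg13 counted as covered if either gene end had a region, and Mest was entered at its first and its internal start. The windows without a region were those at the internal start of Grb10 and upstream of Rasgrf1. Because the boundaries of the methylated segments were unknown, neither an empty nor a filled window settles whether the control region itself was reached.

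Sequences of 300 bases (250 before to 50 after a start, on the transcribed strand) are shown for 7 of the 12 starts at control windows with a promoter sequence. Of the 300 bases, all lay in a region at Meg3, Nnat and Kcnq1ot1, 231 at Peg3, 221 at Snurf-Snrpn, 170 at the internal start of Mest and 121 at Plagl1. Capitals mark GCGGCA, the reverse complement of TGCCGC, the hexamer bound by ZFP57 when it is methylated. ZFP57 is the zinc finger protein that protects imprints in the early embryo. The forward form was searched as well and was absent from all 7. The 7 are all 5 starts with the hexamer, and Kcnq1ot1 and Peg3 from those without it. They therefore overstate how common the hexamer is, and its share over the 12 is given below. Coordinates are on mm10, from RefSeq.
Snurf-Snrpn, chr7:60005150-60005449, minus strand: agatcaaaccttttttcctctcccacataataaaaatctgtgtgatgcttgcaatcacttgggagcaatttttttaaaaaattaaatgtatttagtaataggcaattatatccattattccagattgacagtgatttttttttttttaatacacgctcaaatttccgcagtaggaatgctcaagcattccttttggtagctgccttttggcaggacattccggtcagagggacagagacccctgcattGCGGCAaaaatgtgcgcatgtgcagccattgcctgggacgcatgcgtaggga
Meg3, chr12:109540746-109541045, plus strand: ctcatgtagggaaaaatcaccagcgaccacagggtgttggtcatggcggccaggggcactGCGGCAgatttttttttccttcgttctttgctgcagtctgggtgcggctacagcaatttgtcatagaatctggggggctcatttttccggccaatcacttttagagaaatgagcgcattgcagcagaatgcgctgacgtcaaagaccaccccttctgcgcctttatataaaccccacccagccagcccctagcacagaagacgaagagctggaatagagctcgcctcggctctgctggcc
Plagl1, chr10:13090582-13090881, plus strand: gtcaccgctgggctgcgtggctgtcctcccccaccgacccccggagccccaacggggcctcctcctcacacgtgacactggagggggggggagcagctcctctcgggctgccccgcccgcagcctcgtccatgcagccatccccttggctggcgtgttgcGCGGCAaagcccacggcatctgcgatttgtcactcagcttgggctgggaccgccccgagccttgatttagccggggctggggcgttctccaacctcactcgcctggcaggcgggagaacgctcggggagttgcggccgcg
Nnat, chr2:157559828-157560127, plus strand: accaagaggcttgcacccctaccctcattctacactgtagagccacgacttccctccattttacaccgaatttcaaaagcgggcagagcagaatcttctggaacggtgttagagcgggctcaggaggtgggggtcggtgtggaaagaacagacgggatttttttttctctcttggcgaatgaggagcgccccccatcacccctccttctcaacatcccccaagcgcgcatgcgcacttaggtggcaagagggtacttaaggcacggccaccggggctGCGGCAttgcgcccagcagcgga
Mest internal start, chr6:30737800-30738099, plus strand: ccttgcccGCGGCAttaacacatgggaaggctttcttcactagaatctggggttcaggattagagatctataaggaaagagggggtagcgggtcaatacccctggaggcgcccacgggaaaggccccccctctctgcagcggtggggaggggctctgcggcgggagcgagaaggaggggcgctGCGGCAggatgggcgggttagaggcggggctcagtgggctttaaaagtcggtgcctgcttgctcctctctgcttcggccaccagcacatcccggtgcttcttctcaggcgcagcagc
Kcnq1ot1, chr7:143296498-143296797, minus strand: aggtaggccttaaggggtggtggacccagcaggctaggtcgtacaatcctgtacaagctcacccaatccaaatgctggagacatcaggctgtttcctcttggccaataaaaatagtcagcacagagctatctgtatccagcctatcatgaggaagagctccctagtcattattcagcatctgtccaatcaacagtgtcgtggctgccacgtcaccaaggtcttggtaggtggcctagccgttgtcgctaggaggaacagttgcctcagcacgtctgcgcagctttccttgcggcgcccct
Peg3, chr7:6730370-6730669, minus strand: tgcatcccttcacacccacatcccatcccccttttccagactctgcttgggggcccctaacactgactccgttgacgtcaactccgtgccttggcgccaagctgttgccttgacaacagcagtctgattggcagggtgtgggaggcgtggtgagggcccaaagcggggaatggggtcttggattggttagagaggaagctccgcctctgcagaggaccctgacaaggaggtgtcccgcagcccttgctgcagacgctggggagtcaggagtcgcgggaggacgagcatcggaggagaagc

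Of the 12 promoter sequences at control windows, 5 (41.7%) held the hexamer on either strand, with 2 copies at the internal start of Mest. Over all 32851 promoter sequences of the same length 11.6% held it, and over the 6218 with 8 to 17 CG dinucleotides, the middle range of the control promoters, 12.4%. Of the 34 other promoters of the imprinted genes 8 (23.5%) held it. These 34 include the Snurf-Snrpn sequence again, listed under Snrpn, and a further Mest start that overlaps the internal one. Both hold the hexamer, so the sets are not separate. Kcnq1ot1 and Peg3 had no copy within these 300 bases. CG dinucleotides numbered 27 at the Gnas exon 1A start, 26 at Plagl1, 17 at Nnat and at the internal start of Mest, 13 at Peg3 and at Meg3, 9 at Kcnq1ot1, 7 at Snurf-Snrpn and 3 at Airn, against a median of 7 over all promoters. The hexamer is short, so a match describes the sequence and marks no site of binding, and these shares were not tested.

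Because wide regions had high scores throughout the list, each score was also given as its percentile among all regions whose width lay within 50 bp of its own. Over the whole list the median of this percentile was 51.1. The 38 regions in control windows had a median width of 625 bp, a median score of 532.5 and a median percentile of 27.2 (quartiles 17.9 and 45.2), and 29 of them lay below 50. None was in the upper 10% for its width, which held 7.23% of all regions, and 6 (15.8%) were in the lower 10%, which held 9.15%. The 6 include the Peg13 region of 4580 bp, whose percentile rests on only 7 regions of like width. The absence of upper 10% regions depends on the size of the windows. Outside them, but within 2000 bp of the start, lay regions at percentiles of 97.85 (Peg3), 92.74 (Gnas exon 1A) and 90.46 (Meg3). Regions in the lower 10% also lay there, at Meg3 (2.883) and at the internal start of Grb10 (9.109). The shares were not computed for wider windows. All 29309 regions within 1000 bp of an annotated start had a median percentile of 40.0, with 15.9% in the lower 10% and 5.20% in the upper, so the share of low regions at the control windows was close to that near starts in general.

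**Figure D1:**
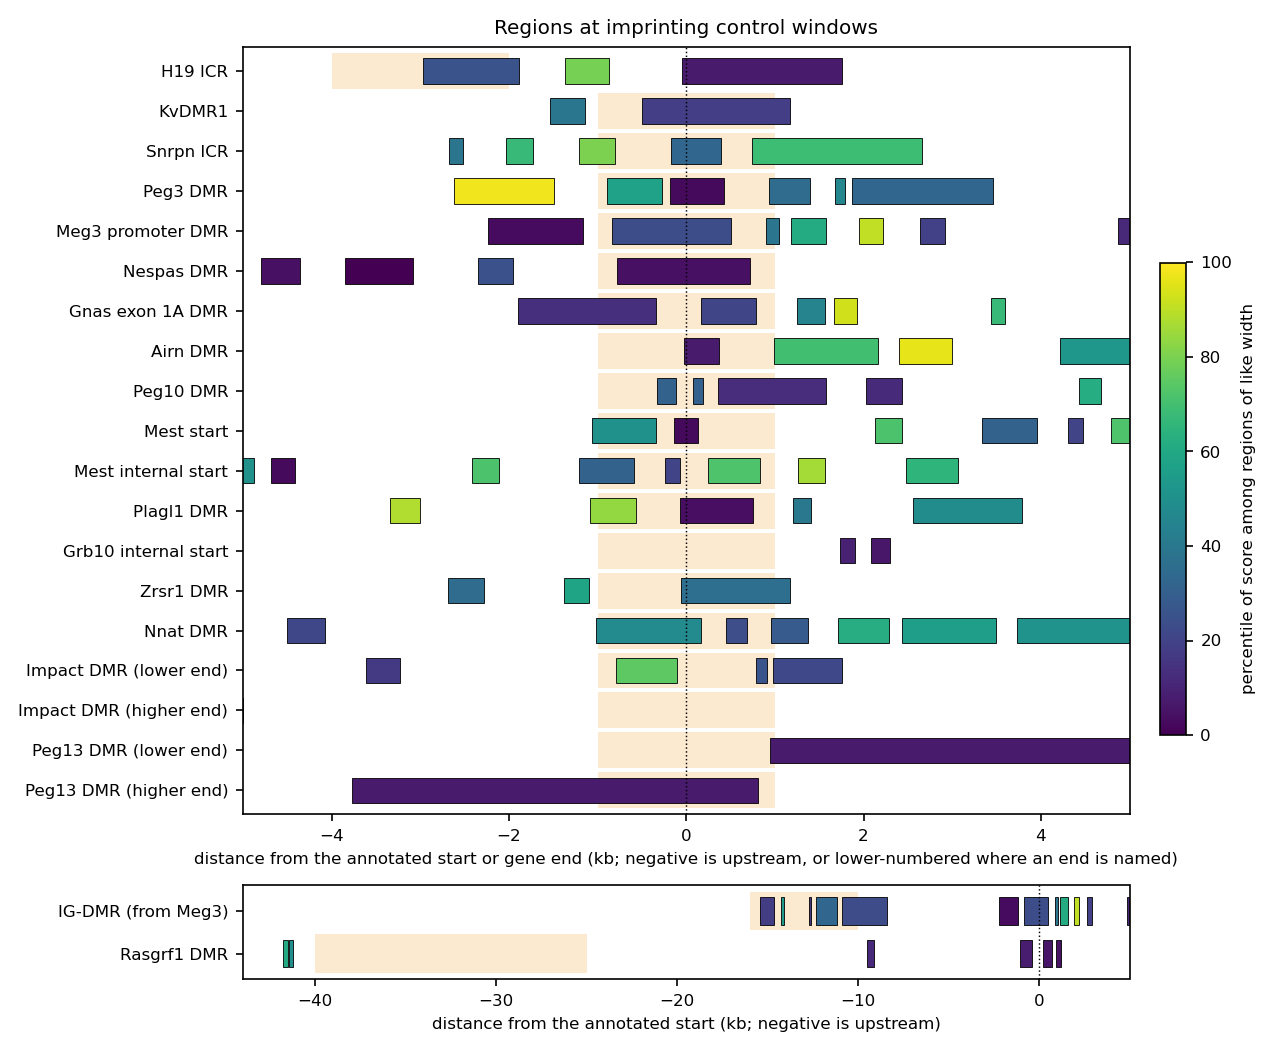
Regions at the imprinting control windows, drawn as boxes by distance from the annotated start or gene end in kb and coloured by the percentile of their score among regions of like width; pale bands are the windows searched. Dark boxes sit over the starts of Peg3, Plagl1, Airn and Mest, and the bands for the Grb10 internal start and for Rasgrf1 are empty.

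At several control windows the region over the start had a low score and a neighbour in or reaching into the same window a higher one. At Peg3 and Usp29, which are transcribed in opposite directions from a shared promoter, the region over both starts (chr7:6729991-6730600, 610 bp) scored 257, the 2.63rd percentile for its width. Its neighbour at chr7:6730691-6731310, 620 bp wide, scored 753. At Plagl1, a zinc finger gene whose control region covers the start it shares with the RNA Hymai, the region over the start (chr10:13090761-13091580, 820 bp) scored 327 and the one upstream (chr10:13089751-13090270, 520 bp) scored 962. At Airn, the RNA that silences Igf2r from within its second intron, the region over the start (chr17:12741291-12741680, 390 bp) scored 217, and the next one, chr17:12742301-12743470, scored 1068. That neighbour began 990 bp after the Airn start and so reached only the edge of the window. Mest, which encodes a hydrolase-like protein, had 148 over its first annotated start (270 bp) beside 756 (730 bp) upstream. It had 533 (620 bp) and 133 (170 bp) just before its internal start against 870 (580 bp) just after it. No region lay over the internal start itself, and which of these starts lies in the Mest control region could not be checked.

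Most other control windows had a region across the start, at middle to low percentiles. The start of Kcnq1ot1, whose promoter is KvDMR1, lay in a single region of 1680 bp (chr7:143295371-143297050) that scored 671, the 18.3rd percentile. The Snurf-Snrpn start, the control region altered in Prader-Willi and Angelman syndromes, lay in a region of 560 bp (chr7:60004811-60005370) with a score of 507, between a region of 1920 bp scoring 1186 and one of 410 bp scoring 727. Zrsr1, which encodes a splicing factor-like protein from within an intron of Commd1, had 1 region of 1230 bp over its start with a score of 750. Nnat, a proteolipid gene of the developing brain that lies inside Blcap, had 840 over its start (1190 bp), followed by 188 (240 bp) and 368 (420 bp). At the Nespas promoter of the Gnas domain (Gnasas1 in RefSeq) a region of 1500 bp scored 458, the 4.09th percentile. The exon 1A start of Gnas fell between regions, with one of 1560 bp scoring 598 before it and one of 630 bp scoring 457 beginning 161 bp after it.

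The windows of both intergenic control regions of Igf2-H19 and Dlk1-Dio3 held regions. In the window 2000 to 4000 bp upstream of H19, where CTCF insulates Igf2 on the maternal allele, 1 region (chr7:142580031-142581120, 1090 bp, score 632) covered 48.7% of the window, on the side nearer H19, and the rest had none. The IG-DMR, which governs the Dlk1-Dio3 domain, had 5 regions in the window 10000 to 16000 bp upstream of Meg3, covering 51.9% of it, with scores of 491, 153, 120, 713 and 862. The last of these, chr12:109530111-109532610, was 2500 bp wide and ran past the window toward Meg3. At Meg3 itself a region of 1340 bp covered the start with a score of 650, and one of 150 bp after it scored 136.

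The Rasgrf1 window, 25000 to 40000 bp upstream of this RAS exchange factor gene, held no region, and the nearest (chr9:89868311-89868530, score 201) ended 1244 bp beyond its outer edge. At Grb10, which encodes an adaptor protein that limits growth, the internal start had no region within 1000 bp. A pair of narrow regions of 220 and 170 bp lay further into the gene, at chr11:12025671-12025890 and chr11:12026071-12026240. They scored 145 and 125, both in the lower 10% for their width, and the nearer one's closest base was 1731 bp from that start. Whether these 2 regions lie in the Grb10 control region could not be checked. Strand was not given for Impact and Peg13, so both gene ends were searched. Impact, a regulator of translation on chromosome 18, had regions at its lower-numbered end (highest score 987) and none within 1000 bp of the other end. Its widest region (chr18:12971421-12973500, 2080 bp, score 621, 10.8th percentile) lay inside the gene and outside both windows. Whether the Impact control region lies in either window could not be checked. Peg13, a non-coding RNA inside Trappc9, lay within 1 region of 4580 bp (chr15:72806551-72811130) except for 949 bp at its lower-numbered end. This region was the widest at any of these genes and scored 1166. Only 7 regions in the list were of like width, so its percentile of 7.14 says little.

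Regions over the starts of imprinted genes in general had lower width-matched scores than their other regions. The 23 regions that contained an annotated start had a median percentile of 24.6 (quartiles 10.3 and 38.8), and the other 323 had 50.5 (quartiles 24.7 and 68.5). Over the whole list the same division gave 34.7 for 8977 regions and 51.6 for 211917. Some of the 23 are also control window regions, such as those over the Peg3 and Plagl1 starts. Regions of the 12 members without a listed start are among the 323 unless they hold the start of another member. In the lower 10% for width were 6 of the 23 (26.1%), against 19.5% of all regions over a start. Percentiles above 50 were found over the starts of Commd1 (score 2172, 97.1st percentile), Zim1 (1620, 93.2nd), Mkrn3 (1216, 79.7th) and Slc22a18 (840, 56.3rd). Over all annotated starts that lay in a region, the median percentile was 48.6 with 0 to 4 CG dinucleotides in the promoter, 31.5 with 10 to 19, 27.7 with 20 to 29 and 31.6 with 30 or more. With 5 to 9 it was 36.3. At the imprinted starts in a region it was 31.8 with 0 to 4 (2 starts) and 24.7 with 5 to 9 (6 starts). With 10 to 19 the imprinted starts had 35.7 (11 starts) and with 20 to 29 they had 8.48 (6 starts). None with 30 or more lay in a region. The part of CG content in the low values of the imprinted starts was not tested.

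**Figure D2:**
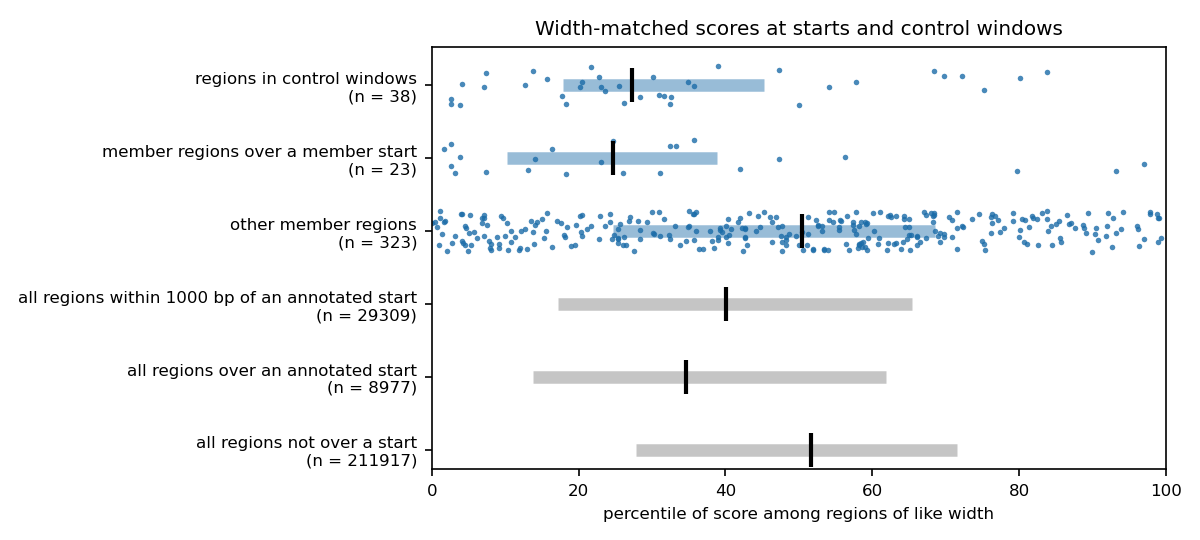
Percentile of the score among regions of like width, for regions of the imprinted genes (blue, each point 1 region) and of the whole list (grey); bars span the quartiles and ticks mark medians. The control windows and the member starts have medians of 27.2 and 24.6, and the other member regions 50.5. The sets overlap, since regions in control windows are also among the member regions.

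As a list, the imprinted genes were nearly all reached. A region lay in or within 1000 bp of 42 of the 43, compared with 83.8% of 21887 protein-coding genes and 74.5% of 12727 lncRNA genes. Ins2, one of the mouse insulin genes, was the exception: the nearest region (chr7:142675461-142676210, score 677) ended 2445 bp from it. Length matters for such a count. Of the 11 protein-coding members under 5 kb, 10 had a region (52.7% of all protein-coding genes of that length), as did all 14 of 5 to 50 kb (90.6%) and all 13 of 50 kb or more (99.0%). The median share of the gene and its flanks inside regions was 26.9% for the short members and 5.01% for all short genes, but 10.9% against 11.6% in the middle class and 4.91% against 5.71% among long genes. These values were not tested, since the list gives 1 pooled value per region and the genes of a domain neighbour each other.

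Of the 45 annotated starts of members, 25 (55.6%) were inside a region, beside 32.4% of all 32851. The share depends on CG content, and by CG count of the promoter the members had 2 of 7 inside with 0 to 4 (14.2% of all starts), 6 of 8 with 5 to 9 (35.7%) and 11 of 15 with 10 to 19 (63.4%). With 20 to 29 they had 6 of 12 (50.1%), and with 30 or more 0 of 3 (18.9%). A further 9 lay within 200 bp of a region but outside it, among them the starts of Magel2, Dio3, Igf2r, Copg2 and Ndn. Of the 31 members with a start in the table, 30 had a region within 1000 bp of one (27 of 28 protein-coding and 3 of 3 lncRNA genes). Slc22a2, an organic cation transporter gene that is imprinted in the placenta, was the exception, with its nearest region 6548 bp from the start. For the 12 members without a listed start either end was used, and Ins2 and Rtl1 had none there.

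**Figure D3:**
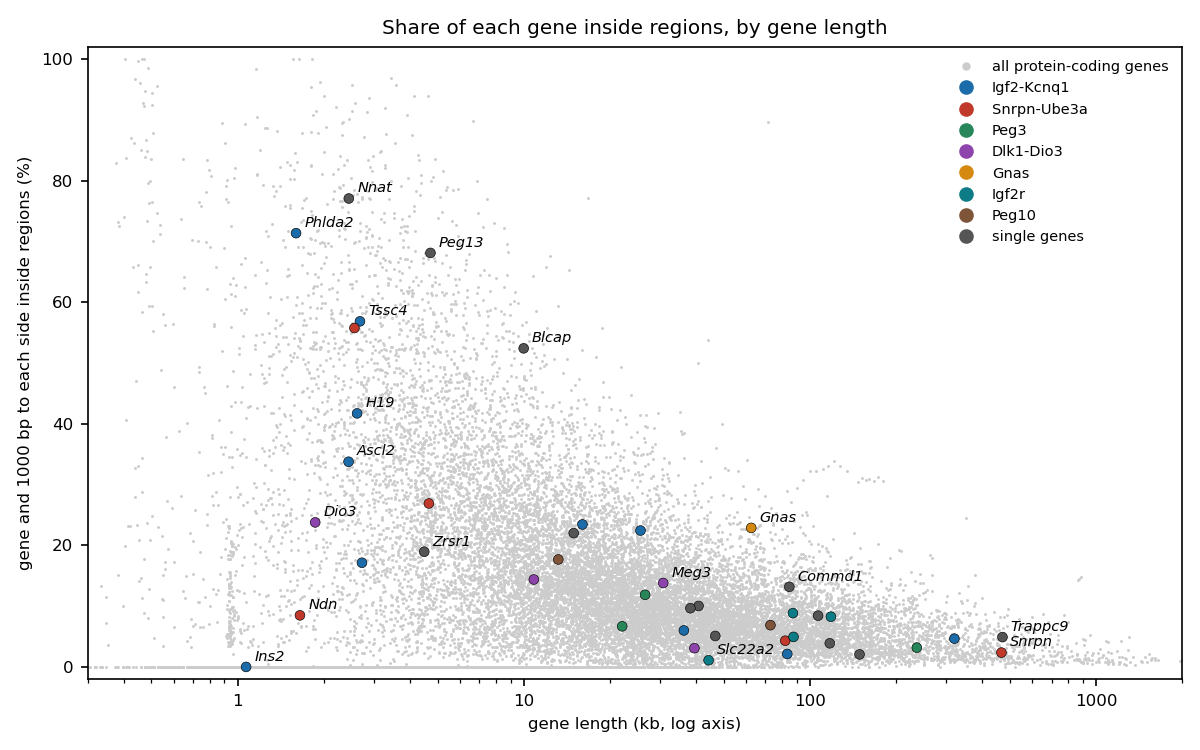
Share of each gene and its 1000 bp flanks inside regions, in percent, against gene length in kb on a log axis, for all protein-coding genes (grey) and the imprinted genes (coloured by domain). Nnat (77.1%), Phlda2 (71.4%) and Peg13 (68.1%) are the most covered of the imprinted genes, and Gnas (22.9%) stands high for its length.

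Scores of the imprinted genes spanned 106 to 2652, with a median of 432 over the 346 regions against 462 over the whole list, and a median width of 450 bp against 460. Their width-matched percentile had a median of 47.7. In the upper 10% were 24 regions (6.94%) and in the lower 10% 47 (13.6%), beside 7.23% and 9.15% of all regions. By gene, the median percentile was 50 or more at 16 of the 42 genes with a region (38.1%, against 45.4% of protein-coding genes with one). The median over the 42 genes was 40.0, beside a median of 47.4 over all protein-coding genes with a region (quartiles over single genes 31.8 and 60.9). This difference was not tested. Members share regions where they overlap, which was the case for 24 of the 346, among them 10 of Igf2r and Airn and 5 of Nnat and Blcap.

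**Figure D4:**
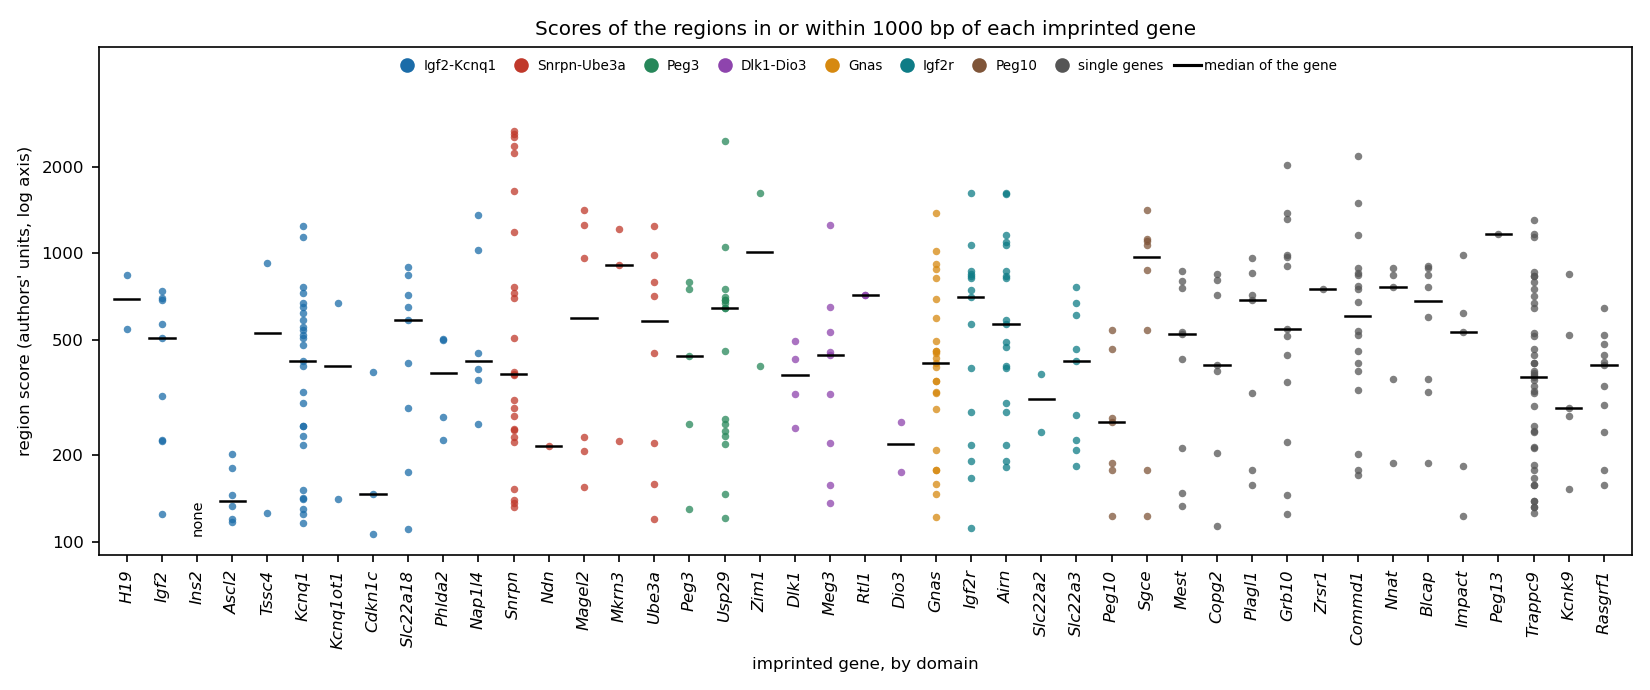
Scores of all regions at each imprinted gene on a log axis, 1 point per region, with the gene's median as a bar and colours for domains. Snrpn, Usp29, Commd1 and Grb10 reach above 2000, all 6 regions of Ascl2 sit between 117 and 202, and Ins2 has none.

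The Igf2-Kcnq1 domain, on distal chromosome 7, had 68 regions with a median percentile of 35.1. Of these, 16 (23.5%) were in the lower 10% for their width, 6 of them at Kcnq1 and 5 at Ascl2. The share was 9.15% over all regions and 15.9% over those within 1000 bp of an annotated start. H19, the non-coding RNA that shares its enhancers with Igf2, had 1 region of 1800 bp across most of the gene (chr7:142576391-142578190, score 546, 7.13th percentile) and 1 of 490 bp upstream with a score of 845. Igf2, which encodes insulin-like growth factor 2, had 9 regions scoring 125 to 741, and the 5243 bp at the far end of the gene from its first start had none. Ascl2, a transcription factor of the placenta, had the lowest median percentile of the domain's genes. Its 6 regions scored 202, 133, 145, 180, 120 and 117 along the gene, and 5 of the 6 were in the lower 10%. The median percentile of Ascl2, 3.83, was below that of all but 0.807% of protein-coding genes with a region.

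Cdkn1c, which encodes the cell cycle inhibitor p57, had 3 regions scoring 147, 106 and 387, at the 59.3rd, 1.13th and 15.6th percentile for their width, and 1959 bp of the gene's 2721 bp lay in 1 stretch without a region. Phlda2, which restrains growth of the placenta, was 71.4% covered by 4 regions, scoring 503, 225, 502 and 270, of which the last was at the 62.6th percentile for its width. The region over its start was the one at 225 (580 bp, 1.61st percentile). Slc22a18, a transporter-like gene, had 9 regions that ran from 111 to 897, the widest of them (1800 bp) at 651, and Tssc4 had a region of 2560 bp over its start with a score of 930.

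Kcnq1, the gene of a cardiac potassium channel, had 27 regions over 320174 bp with scores of 116 to 1248. Its antisense RNA Kcnq1ot1 had only 2 in 83437 bp, the one over its promoter and one of 140 bp that scored 141. Before the narrow one ran 77620 bp of Kcnq1 without a region (chr7:143198941-143276560), which took in the far end of Kcnq1ot1 and was the longest such stretch in the domain. Nap1l4, a histone chaperone gene at the edge of the domain, was the opposite of Ascl2, with 6 regions at a median percentile of 76.7 and a highest score of 1361 (570 bp, 93.8th percentile).

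In the Snrpn-Ube3a domain the 43 regions had a median percentile of 62.9. Of these, 8 (18.6%) were in the upper 10%, beside 7.23% of all regions, and 6 of the 8 were at Snrpn. Snrpn, which encodes a spliceosomal protein, is annotated over 467683 bp because of upstream starts, and had 25 regions. Upstream of the control region 92870 bp had none, and 3 of its 4 annotated starts lay 5925 to 40107 bp from any region. Further upstream stood 6 regions of 540 to 690 bp with scores of 2350, 1642, 2532, 2601, 2232 and 2652, all above the 96th percentile. The other 16 regions upstream of the control region scored 132 to 765, with a median of 259.5. The 6 formed 2 runs of 3, with starts 5750 and 8600 bp apart in the first and 5730 and 7190 bp apart in the second. No test was made of whether these sequences have near-identical copies elsewhere.

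The other genes of this domain differed among themselves. Ube3a, the ubiquitin ligase gene lost in Angelman syndrome, had 8 regions that scored 120 to 1245, with 220 over its start (310 bp, 13.2nd percentile) and 1245 in the region of 680 bp just upstream. Magel2, a MAGE family gene, had 6 regions, of which 1252, 963 and 1410 lay at its flanks and 207, 155 and 230 inside it. Mkrn3, a makorin gene that restrains puberty, had 912, 223 and 1216, and Ndn, a further MAGE family gene, had a single region of 310 bp that scored 215 (12.1st percentile). Taken over its 3191 kb span the domain held 60.2 regions per Mb, against 94.5 on chromosome 7 as a whole, with 348.3 kb free of regions between chr7:59323271 and chr7:59671530.

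**Figure D5:**
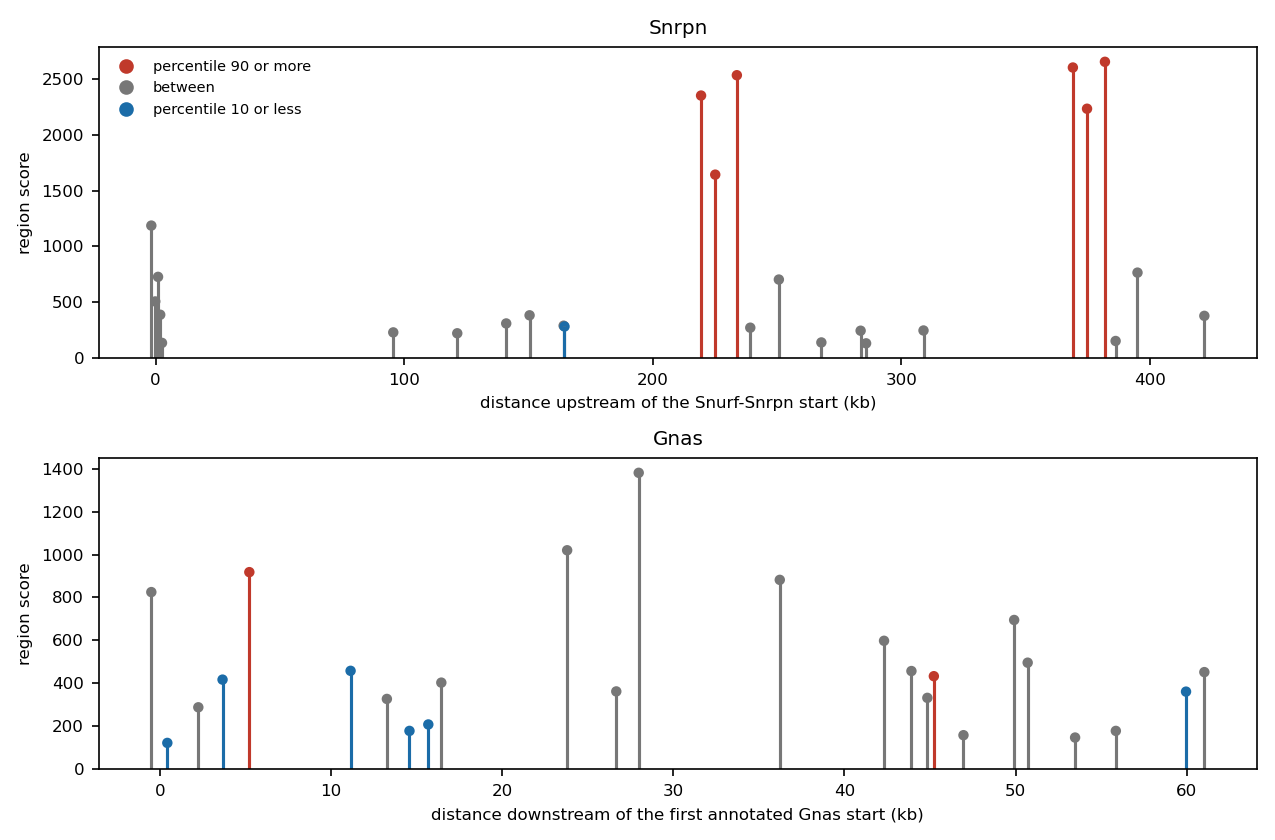
Scores of the regions of Snrpn by distance upstream of the Snurf-Snrpn start and of Gnas by distance downstream of its first annotated start, both in kb; red marks the 90th width-matched percentile or more and blue the 10th or less. Snrpn shows 2 runs of 3 regions at 1642 or more, and Gnas has 6 regions in blue, all but the last of them before its highest score of 1381.

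Gnas, which encodes the stimulatory G protein alpha subunit and several alternative products, was the most densely covered of the domains. It held 25 regions in 62425 bp, or 22.9% of the gene and its flanks, more than 98.9% of protein-coding genes of 50 kb or more. The median percentile was 27.1, and 6 of the 25 (24%) were in the lower 10%. That share was 9.15% over all regions and 15.9% over those within 1000 bp of an annotated start. The first annotated start, that of the Nesp transcript, lay in a region of 1320 bp with a score of 825. The lowest value for its width at any imprinted gene was also here, a region of 770 bp (chr2:174298521-174299290) with a score of 178, the 0.083rd percentile. The highest score was 1381, at chr2:174311871-174312720, and the start of the main transcript lay 335 bp from the nearest region, of 260 bp, which scored 433.

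The Dlk1-Dio3 domain had 17 regions with a median percentile of 31.1. Dlk1, which encodes a Notch-like transmembrane protein, had 4 regions scoring 497, 326, 248 and 430, at the 31.1st, 5.15th, 18.1st and 84.3rd percentile for their width. Dio3, which encodes the deiodinase that inactivates thyroid hormone, had 261 over 700 bp (1.86th percentile) and 175 over 220 bp (28.1st). Meg3, a non-coding RNA with tumour suppressor activity, had 9 regions from 136 to 1258, all in the first part of the gene, and the last 20139 bp had none. Rtl1, a retrotransposon-derived gene needed in the placenta, had 2 regions of 390 and 890 bp that both scored 720.

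The microRNA clusters of the domain were thinly covered. Of its 58 hairpins 4 (6.90%) overlapped a region and 16 (27.6%) had one within 1000 bp, against 17.2% and 42.7% of all 1005 hairpins in the table. None of the 13 hairpins in the Snrpn-Ube3a span had a region within 1000 bp. Of the 4 in the Dlk1-Dio3 domain, that of miR-539 lay in none of the 43 genes, in a region of 1010 bp that scored 496. The hairpins in regions within the 43 genes were that of miR-675 in H19 and those of miR-665, miR-434 and miR-432 in Rtl1. The mature sequences of those within the 43 genes are given with the seed, bases 2 to 8, in capitals.
miR-675-5p: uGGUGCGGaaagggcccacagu
miR-675-3p: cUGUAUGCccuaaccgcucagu
miR-665-5p: aGGGGCCUcugccucuauccaggauu
miR-665-3p: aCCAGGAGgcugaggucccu
miR-434-5p: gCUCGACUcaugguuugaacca
miR-434-3p: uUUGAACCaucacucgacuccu
miR-432: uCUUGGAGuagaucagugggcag
No seed was shared among them. The miR-675 hairpin lay in the H19 region that scored 546, that of miR-665 partly in the Rtl1 region of 390 bp, and miR-434 and miR-432 in that of 890 bp. Mir483 in Igf2 had no region within 1000 bp, and Mir335 in Mest had one near it but not over it.

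The Igf2r domain had 35 regions with a median percentile of 56.8. Igf2r, the receptor that clears IGF2, had 15 regions scoring 112 to 1623, and 10 of them also belonged to Airn. The highest, chr17:12743711-12744310 (600 bp, 96.1st percentile), began 2400 bp into Airn. A region of 590 bp lay 104 bp upstream of the Igf2r start, with a score of 570. Airn had 19 regions in 118574 bp and reached 1603 and 1157 beyond Igf2r. Slc22a3, a placentally imprinted transporter gene, had 9 regions with 611 over its start (1430 bp), and Slc22a2 had only 2, scoring 383 and 241.

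At the Peg3 and Peg10 domains high scores lay away from the shared promoters. Zim1, a zinc finger gene, had 1620 over its start (1220 bp, 93.2nd percentile). Usp29, a deubiquitinase gene, reached 2458 at chr7:6731911-6733040 (1130 bp), some way downstream of the promoter region that scored 257. Peg3 itself had 5 regions, of 798, 130, 440, 257 and 753, all in the part near its start, and the other 23069 bp of the gene had none. Peg10, a retrotransposon-derived gene, and Sgce, the epsilon-sarcoglycan gene, share 3 regions at their common promoter that scored 178, 123 and 543. Elsewhere in Sgce 5 regions scored 877 to 1411, and elsewhere in Peg10 4 scored 188 to 466.

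Among the single genes Grb10 and Commd1 had the highest scores. Grb10 had 13 regions, led by one of 640 bp in the gene (chr11:12009991-12010630) at 2023, the 97.9th percentile, and its widest (2500 bp) scored 1377. Its first start lay 300 bp from a region of 1010 bp scoring 905. Commd1, which takes part in copper export, had 18 regions of 171 to 2172, the highest over its first start and the widest (2160 bp) at 1495, whereas its second start shared the 750 of Zrsr1. Nnat and Blcap were covered over 77.1% and 52.4% of their length and flanks, with scores of 188 to 901. Plagl1 had 7 regions from 157 to 962 and Mest 9 from 133 to 870.

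Copg2, the coatomer gene beside Mest, had 7 regions in 149262 bp, from 113 to 850. Trappc9, a trafficking gene, had 41 regions in 471619 bp, with scores of 126 to 1303 and a median percentile of 40.4. Kcnk9, a potassium channel gene imprinted in brain, had 5 regions of 153 to 846. Rasgrf1 had 11 regions of 157 to 647, and the 3 at its start (346, 241 and 157) were all in the lower 10% for their width. Impact had 5 regions of 123 to 987, of which the widest (2080 bp) scored 621.

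A second list of 25 imprinted genes that were not among the 43 had a region at 25 of 25, beside 83.8% of all protein-coding genes, and, of the 23 with a listed start, within 1000 bp of it at 21, beside 74.0%. The lists are not separate: Snurf lies inside Snrpn and Nespas overlaps Gnas, and some listed genes overlap each other, such as Nap1l5 and Herc3. Its median of the gene medians was 51.5. The starts that were missed were those of Rian and Mirg, the non-coding RNAs downstream of Rtl1. Named after their values were seen, neighbours of Kcnq1, Cd81 and Tspan32, had median percentiles of 26.1 and 26.0, while Tnfrsf23 had 77.5.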

How the data were processed

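Per the labels' protocols, DNA from 8 mouse lines was enriched by capture and sequenced after bisulfite treatment. The submitters' processing notes name Novoalign 3.7.1, Picard and the build mm10. The sources used here give no region caller, filter or methylation caller. The authors deposited 1 list for all lines, with a whole-number score of at least 100 per region, used here only to describe and rank regions. Depth per line is unknown, so no interval is given. With 1 pooled value per region no line could be compared with another, and no test was run.

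Regions sharing at least 1 bp with a gene or its 1000 bp flanks were assigned to it (Python 3.11.15, pandas 2.3.3, numpy 2.4.6), with the overlap code tested on simulated intervals. Percentiles are the share of regions within 50 bp of the same width that scored lower, with ties counted in part. Starts and strands came from the RefSeq promoter table. The H19 and Peg10 windows were set from the gene end facing Igf2 and Sgce, and that of Nespas from the Gnasas1 end opposite in strand to Gnas. All 43 genes matched by symbol, and 31 had a start. The rule named all members, their highest-scoring and widest regions and those in control windows; some of these regions are given only within ranges. Members, lists and windows were chosen with earlier results of these data known.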

Additional observations from a re-analysis of the deposited data

How the results depend on the processing

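The count of imprinted genes with a region stayed at 42 with distances of 0, 500 or 2000 bp, with scores of at least 200 and with region midpoints, and was 28 with the upper 25% by score (768 or more). That stricter score left 78 regions, 8 control windows with a region and 19 genes covered at the start or an end, in place of 346, 17 and 40. Control windows with a region numbered 17 with windows of 500 bp, 18 with 2000 bp, which reached the narrow Grb10 regions, and 16 with midpoints. The median percentile of 47.7 was 48.0 and 46.4 with width tolerances of 25 and 100 bp and 47.1 without matching. Taking the median over genes of each gene's own median gave 40.0, and the cause was not tested. Of 129 counts for single genes at other distances 122 were within 1.5 times the main one. No paired analysis was possible because the list has no value for any line, and for the same reason no line could be left out.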

Other observations

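Of the genes linked to setting or keeping imprints, those named here were picked after their values were seen. All 14 of a list of such genes had a region, beside 83.8% of all protein-coding genes, and all 12 with a listed start had one within 1000 bp of it, beside 74.0%. Zfp57 and Zfp445, zinc finger genes whose proteins bind methylated control regions, had 7 and 11 regions with median percentiles of 55.5 and 51.0. Trim28 and Setdb1, which encode the corepressor and histone methyltransferase they recruit, had 5 and 7 regions (46.5 and 58.1). Dnmt1, the maintenance methyltransferase gene, had 7 regions at a median of 53.9, whereas Dnmt3a, a de novo methyltransferase gene, had 23 at 18.2. Smchd1 and Hells, both chromatin regulator genes, reached scores of 2345 and 2517, and Ctcf, the insulator protein gene, reached 1456.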
